A study of Mus musculus with 4 samples.

Results

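The oxygen-sensing branch of the hypoxia response was followed in mouse liver through 10 genes: the hydroxylases Egln1, Egln2, Egln3 and Hif1an, the transcription factor subunits Hif1a, Epas1 and Arnt, the ubiquitin ligase component Vhl, and the target genes Vegfa and Bnip3. A probe counted as one of theirs where the gene symbol in the authors' table of the series was 1 of these 10 names, which gave 21 of the 41174 probes on the array. All 21 passed the filter on dim probes, as did 39080 probes in all. The study hybridised liver RNA of male C57Bl/6 mice, 3 months old, to 4 two-colour Agilent arrays. Each array carried, in Cy5, 1 liver RNA of a Wrn mutant that had drunk 0.4% vitamin C from weaning on and, in Cy3, 1 of an untreated wild-type mouse. The labels call the 4 arrays biological replicates and name the Wrn mutation no further. The dyes were not swapped, and neither untreated mutant nor treated wild-type liver was part of the comparison. The effects of genotype, of vitamin C and of the dye therefore cannot be told apart in any ratio below.

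The hypoxia-inducible factors (HIFs) are pairs of an oxygen-regulated alpha subunit, such as those encoded by Hif1a and Epas1, and the stable partner encoded by Arnt. In oxygenated cells the prolyl hydroxylases of the Egln family mark the alpha subunit, the Vhl protein recognises the mark and has it degraded, and the asparaginyl hydroxylase encoded by Hif1an blocks its coactivators. These hydroxylases need oxygen, iron and oxoglutarate, and vitamin C serves them as a reducing agent. The regulation acts largely on the protein, whereas the arrays measured RNA.

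Each value below is a log2 ratio of the mutant over the wild-type channel, after background correction and loess normalization within arrays, and each error is the SD over the 4 arrays. A probe counted as changed at an adjusted p under 0.05 in limma, with Benjamini-Hochberg adjustment over all kept probes. The share of probes well above background ran from 82.1% to 95.6% in the mutant channel and from 83.8% to 96.1% in the wild-type channel, with array 1 the lowest in both. Between any pair of arrays the ratios of all kept probes, which are not independent replicates, had a Pearson r of 0.394 to 0.589. Array 4 stood apart in the acute phase gene Lcn2, with a log2 intensity of 12.3 in the mutant and 15.5 in the wild-type channel, where the other arrays had 8.44 to 8.84 in the mutant and 8.79 to 9.27 in the wild-type channel. Values without array 4 stand beside the probes whose mean it moved most. The Wrn probe that stood for its gene had log2 ratios between -0.02 and 0.03 on the 4 arrays, which does not check the genotype because the labels do not say what the mutation removes. Precision is limited by having 4 arrays. Since the RNA came from whole liver, fewer cells of a type and less RNA per cell cannot be told apart.

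Within the pathway, 1 probe of Hif1a, 1 of Arnt and 1 of Vegfa were lower in the vitamin C-treated mutants, and 1 of Epas1 was higher. No probe of the hydroxylases, Vhl or Bnip3 passed the test. The 4 probes past the threshold were 19.0% of the 21, where 13.0% of all kept probes passed. They comprised 1 higher probe, against a share of 6.19% higher among all probes, and 3 lower ones, against 6.79%. The calls of all probes were 47.7% higher, and 58.8% higher when arrays were centred on their median in place of loess. A further 7 of the 21 had an unadjusted p under 0.05 and did not pass after adjustment: 1 probe each of Egln1, Egln2 and Vegfa and 2 each of Epas1 and Arnt. The median log2 ratio of the 21 probes was -0.08, with 0.00 for all kept probes, and their median SD over arrays was 0.16, with 0.10 for all. One sign on all 4 arrays was seen for 11 of the 21 (52.4%), 3 higher and 8 lower, and for 40.3% of all probes. Leaving out array 1 or array 2 left 0 of the 21 past the limma threshold, with 8 and 7 at an unadjusted p under 0.05. Agilent's own processed signals also left 0, with 11 at an unadjusted p under 0.05 and adjusted p-values of the 4 probes from 0.0651 to 0.0684.

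**Figure D1:**
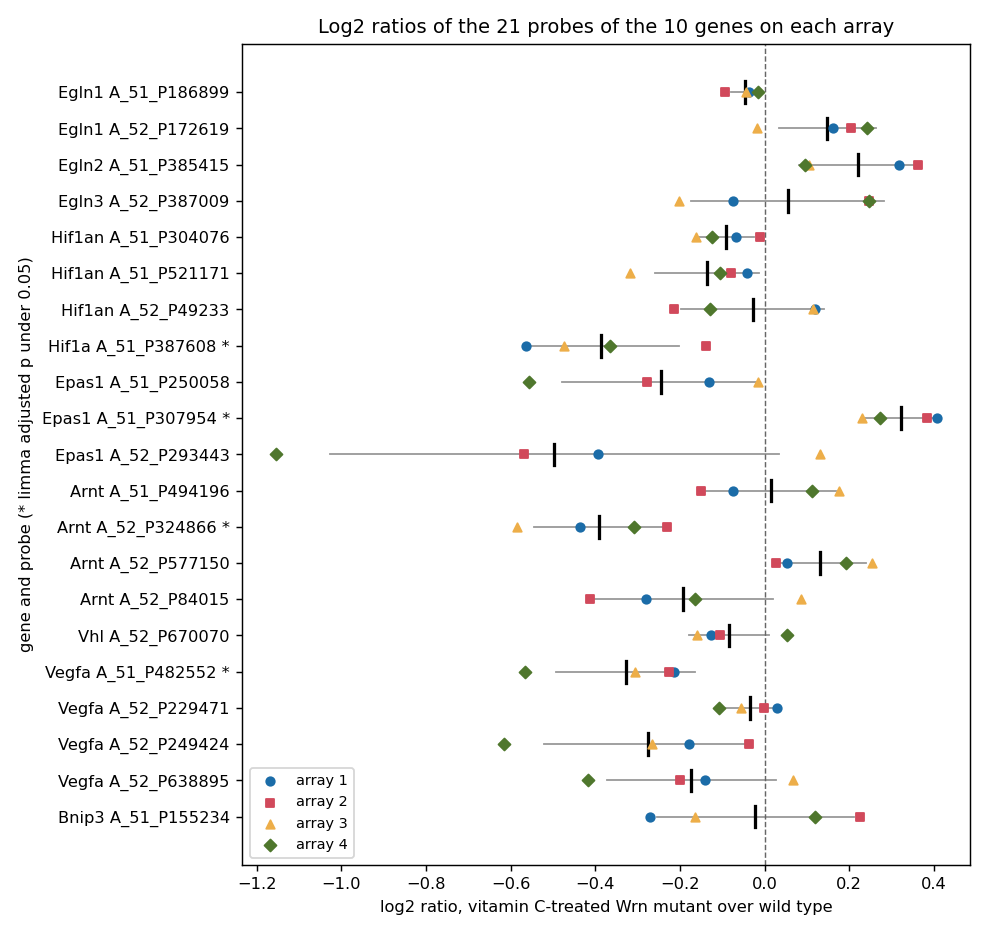
Log2 ratio (x axis, mutant over wild type) of each of the 21 probes (y axis) on arrays 1 to 4, as coloured symbols, with the mean as a black tick and the SD as a grey line. The probes marked with an asterisk, with adjusted p-values of 0.0248 for Hif1a, 0.0159 for Epas1, 0.0195 for Arnt and 0.0296 for Vegfa, lie on 1 side of 0 on every array, and array 4 gives the lowest ratio of several Epas1 and Vegfa probes.

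**Figure D2:**
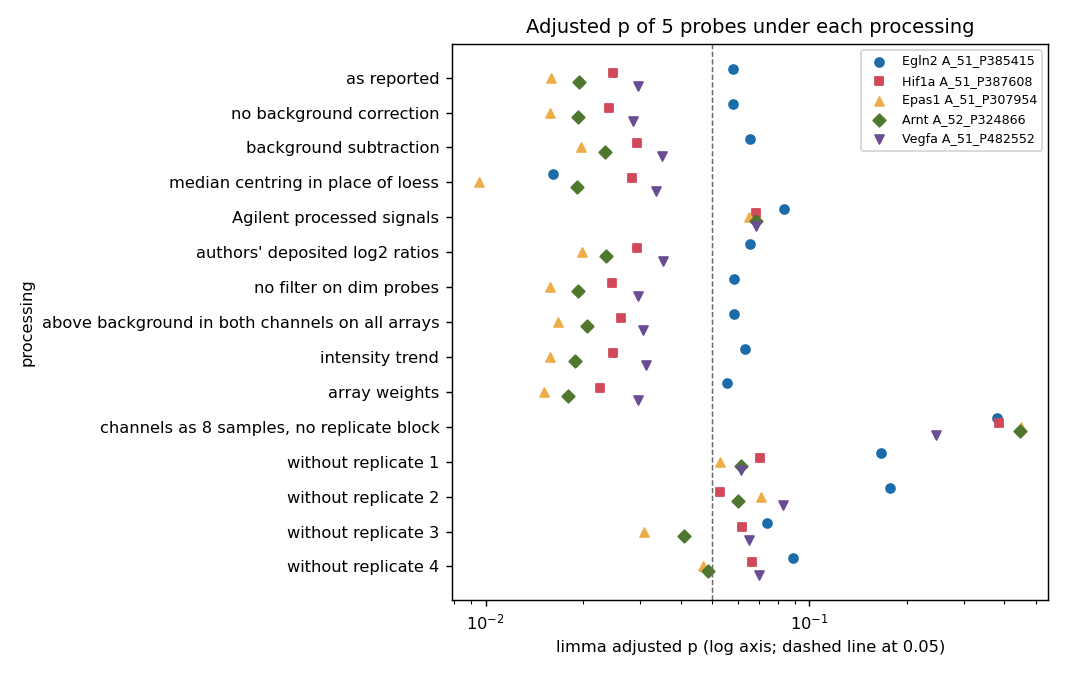
Adjusted p in limma (x axis, log scale, dashed line at 0.05) of 5 probes under each way of processing (y axis). The probes of Hif1a, Epas1, Arnt and Vegfa stay left of the line under changes of background correction, filter and moderation and move right of it with Agilent's processed signals, with the channels taken as 8 samples and without array 1 or 2.

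None of the 4 hydroxylase genes passed the test. Egln1 encodes the main oxygen-sensing prolyl hydroxylase of most tissues. Its probe A_52_P172619 had log2 ratios of 0.16, 0.20, -0.02 and 0.24 on arrays 1 to 4, a mean of 0.15 ± 0.11 (SD, n = 4; adjusted p = 0.118). Its probe A_51_P186899 had -0.04, -0.09, -0.04 and -0.02, a mean of -0.05 ± 0.03 (adjusted p = 0.477). The probes thus had means on opposite sides of 0, and neither passed. Egln2 encodes a prolyl hydroxylase of the same family. Its log2 intensities were 12.17, 12.20, 11.99 and 12.04 in the mutant and 11.85, 11.84, 11.89 and 11.94 in the wild-type livers. All 4 mutant values lay above all 4 wild-type values, as was so, in either direction, for 2 of the 21 probes (9.52%) and for 7.15% of all probes. The log2 ratios were 0.32, 0.36, 0.11 and 0.10, larger on arrays 1 and 2, with a mean of 0.22 ± 0.14 (SD, n = 4; 95% confidence interval 0.08 to 0.37; adjusted p = 0.0580). With median centring the mean was 0.31 and the adjusted p 0.0161.

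Egln3, the hydroxylase gene that is itself a HIF target in many tissues, had log2 ratios of -0.07, 0.25, -0.20 and 0.25, a mean of 0.05 ± 0.23 (SD, n = 4; adjusted p = 0.697). Arrays 2 and 4 were above 0, arrays 1 and 3 below it. Hif1an was measured by 3 probes. A_51_P304076 averaged -0.09 ± 0.07 (adjusted p = 0.216) and A_51_P521171 averaged -0.14 ± 0.12 (adjusted p = 0.154), both below 0 on all 4 arrays. A_52_P49233 averaged -0.03 ± 0.17 (adjusted p = 0.813), above 0 on arrays 1 and 3 and below it on arrays 2 and 4. The mean of the 3 probes was -0.09 (adjusted p = 0.203 over all genes).

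Hif1a, which encodes the widely expressed HIF alpha subunit, fell in the mutants. The log2 intensities of its single probe were 11.14, 11.00, 10.81 and 10.88 in the mutant livers and 11.71, 11.14, 11.29 and 11.24 in the wild-type livers. Array 1 held the highest value of each group, and the groups met at their edges, with the mutant of array 1 level with the wild type of array 2. Within each array the mutant was lower, by log2 ratios of -0.56, -0.14, -0.47 and -0.37. The mean was -0.39 ± 0.18 (SD, n = 4; 95% confidence interval -0.56 to -0.21), 1.31-fold lower, with an adjusted p of 0.0248. The call was lost when any 1 array was left out, at adjusted p-values of 0.0530 to 0.0704 and log2 ratios of -0.47 to -0.33. The probe that measured it follows, in lower case and as the series table lists it.
Hif1a A_51_P387608: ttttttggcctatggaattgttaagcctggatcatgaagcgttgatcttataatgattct

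Epas1, which encodes the alpha subunit HIF-2α, is prominent in endothelium and controls erythropoietin and iron genes in liver. Its 3 probes went apart, and their sequences, from the series table, are shown because the gene's direction depends on which is read.
Epas1 A_51_P307954: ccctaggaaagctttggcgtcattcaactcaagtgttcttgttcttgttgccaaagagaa
Epas1 A_51_P250058: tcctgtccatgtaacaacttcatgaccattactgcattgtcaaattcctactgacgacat
Epas1 A_52_P293443: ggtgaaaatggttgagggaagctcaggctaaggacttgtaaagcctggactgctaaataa
The first rose in the mutants: its log2 ratios were 0.41, 0.38, 0.23 and 0.27 (mean 0.32 ± 0.08, SD, n = 4; 1.25-fold; adjusted p = 0.0159), above 0 on every array. Its log2 intensities were 10.15, 9.99, 9.78 and 9.65 in the mutant and 9.74, 9.61, 9.55 and 9.38 in the wild-type livers, which overlapped between arrays although not within one. The second probe, annotated to the same RefSeq transcript, had ratios of -0.13, -0.28, -0.01 and -0.56, a mean of -0.24 ± 0.23 (adjusted p = 0.105). It was the only one of the 3 whose mean changed sign with median centring, to 0.10. The third, annotated to a cDNA clone with no RefSeq transcript, had -0.39, -0.57, 0.13 and -1.16, a mean of -0.50 ± 0.53 (adjusted p = 0.108), and without array 3 it passed at -0.71 (adjusted p = 0.0447). Array 4 was the lowest of both of these probes, and without it the second was at -0.14 (adjusted p = 0.258) and the third at -0.28 (adjusted p = 0.229). The mean of the 3 probes was -0.14 (adjusted p = 0.344 over all genes), so the single higher call is that of 1 probe and not of the gene.

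Arnt, the gene of the shared beta subunit, was likewise split. Of its 4 probes, the 2 that are annotated to RefSeq transcripts, both to the same 2 transcripts, are shown.
Arnt A_52_P324866: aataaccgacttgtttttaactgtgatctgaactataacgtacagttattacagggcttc
Arnt A_52_P577150: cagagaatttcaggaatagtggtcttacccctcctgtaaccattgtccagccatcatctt
The first fell in the mutants, with log2 ratios of -0.44, -0.23, -0.58 and -0.31 (mean -0.39 ± 0.16, SD, n = 4; 1.31-fold lower; adjusted p = 0.0195). Its log2 intensities were 10.94, 10.65, 10.51 and 10.48 in the mutant and 11.37, 10.88, 11.09 and 10.78 in the wild-type livers, overlapping between arrays. The second had 0.05, 0.03, 0.25 and 0.19, above 0 on all arrays, with a mean of 0.13 ± 0.11 (adjusted p = 0.148). The other two are annotated to cDNA entries alone: A_52_P84015 averaged -0.19 ± 0.21 (adjusted p = 0.151) and A_51_P494196 averaged 0.02 ± 0.15 (adjusted p = 0.888). The mean of the 4 probes was -0.11 (adjusted p = 0.169 over all genes).

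Vhl, the substrate-binding subunit of the ligase that removes hydroxylated HIF alpha, was measured by 1 probe annotated to a cDNA entry. Its log2 ratios were -0.13, -0.11, -0.16 and 0.05 (mean -0.08 ± 0.09, SD, n = 4; 95% confidence interval -0.20 to 0.04; adjusted p = 0.296). Only array 4 was above 0.

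**Figure D3:**
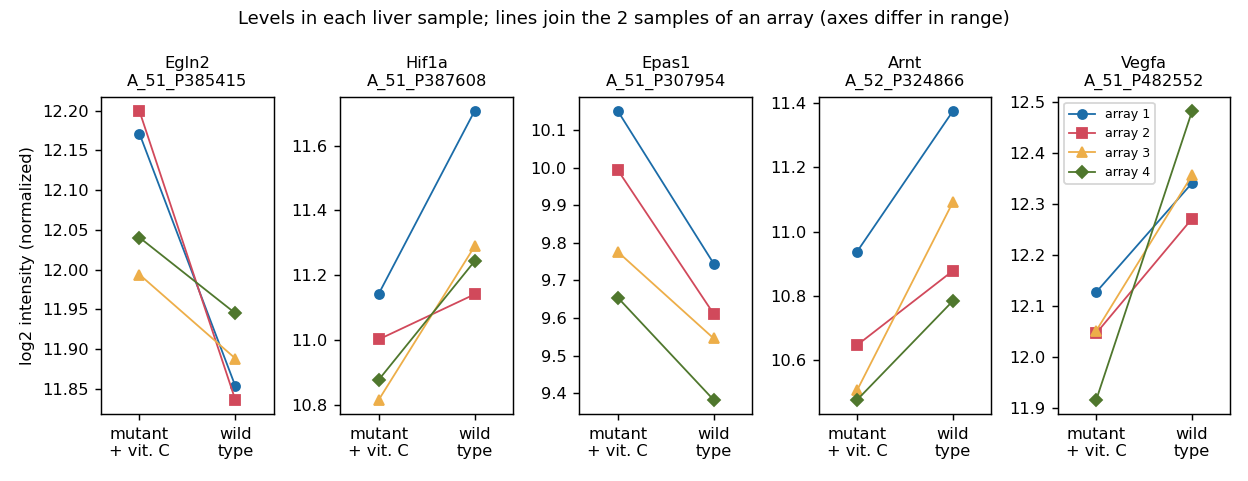
Normalized log2 intensity (y axis, each panel with its own range) of 5 probes in the mutant and wild-type livers of arrays 1 to 4, lines joining the samples of an array. Every line falls towards wild type for Egln2 and Epas1 and rises towards it for Hif1a, Arnt and Vegfa, and the groups do not overlap for Egln2 and Vegfa.

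Vegfa encodes the main angiogenic growth factor and is a classical HIF target. It was lower in the mutants on its most densely replicated probe, and 3 of its 4 probes, which are all annotated to shared RefSeq transcripts, are shown in order of their ratio.
Vegfa A_51_P482552: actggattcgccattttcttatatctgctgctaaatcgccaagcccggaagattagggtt
Vegfa A_52_P638895: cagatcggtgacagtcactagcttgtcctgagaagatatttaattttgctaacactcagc
Vegfa A_52_P229471: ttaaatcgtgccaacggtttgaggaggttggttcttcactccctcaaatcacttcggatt
The first was printed in 10 spots on each array. Its log2 intensities were 12.13, 12.05, 12.05 and 11.92 in the mutant and 12.34, 12.27, 12.36 and 12.48 in the wild-type livers, with no overlap between the groups. The log2 ratios were -0.21, -0.22, -0.31 and -0.57 (mean -0.33 ± 0.16, SD, n = 4; 95% confidence interval -0.49 to -0.17), 1.26-fold lower, with an adjusted p of 0.0296. All 10 spots were below 0 on each array. The SD among the spots was 0.06 to 0.07 within an array, smaller than the 0.16 between arrays, and array 4 lay farthest from the others. Without array 4 the mean was -0.25 (adjusted p = 0.0696), and the call was lost without any 1 array, at adjusted p-values of 0.0614 to 0.0830.

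**Figure D4:**
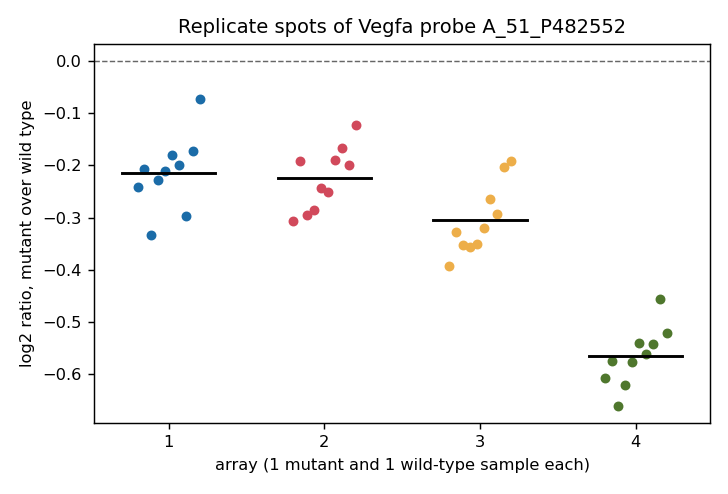
Log2 ratio (y axis, mutant over wild type) of the 10 spots of Vegfa probe A_51_P482552 on each array (x axis), with the mean of the spots as a black line. The means are -0.21, -0.22, -0.31 and -0.57 on arrays 1 to 4, and every spot lies below 0.

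The other Vegfa probes did not pass. A_52_P249424 had log2 ratios of -0.18, -0.04, -0.27 and -0.62, a mean of -0.27 ± 0.25 (SD, n = 4; adjusted p = 0.0871). A_52_P638895, the brightest of the 4, had -0.14, -0.20, 0.07 and -0.42, a mean of -0.17 ± 0.20 (adjusted p = 0.171). Both were lowest on array 4, the array with the high Lcn2 intensities. Without array 4 they were at -0.16 (adjusted p = 0.193) and -0.091 (adjusted p = 0.461). A_52_P229471 was close to 0 on every array, at 0.03, 0.00, -0.06 and -0.11 (mean -0.03 ± 0.06; 95% confidence interval -0.14 to 0.07; adjusted p = 0.648). All 4 means were below 0, and the mean of the 4 probes was -0.20 (adjusted p = 0.0811 over all genes).

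Bnip3, a HIF target that encodes a mitophagy receptor of the outer mitochondrial membrane, did not pass. Its log2 intensities were 14.43, 14.67, 14.33 and 14.47 in the mutant and 14.70, 14.44, 14.49 and 14.35 in the wild-type livers. The log2 ratios of -0.27, 0.23, -0.16 and 0.12 were split between arrays, with a mean of -0.02 ± 0.23 (SD, n = 4; 95% confidence interval -0.23 to 0.18; adjusted p = 0.882). With median centring the mean was 0.24 (adjusted p = 0.183).

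Of the 5 genes with more than 1 probe, 3 (Egln1, Epas1 and Arnt) had probes whose means lay on opposite sides of 0. Probes of 1 gene shared no run of more than 7 bases on the same strand, so they are separate sequences. Whether they lie in the same transcript, and where, was not mapped here. In the authors' deposited table, which tests each spot, the same probes of Hif1a (adjusted p = 0.0371), Epas1 (0.0261) and Arnt (0.0305) were under 0.05, as were 7 of the 10 spots of the Vegfa probe, whose log2 ratios ran from -0.41 to -0.23. No other spot of the 10 genes was under 0.05 there, where 9.87% of all spots were.

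Promoter sequence was compared for the members with a RefSeq window of 300 bases around the transcript start (build GRCm38.p6), which was 9 of the 10 genes. Each was searched on both strands for ACGTG, the core of the hypoxia response element, and the list was extended afterwards to the variant GCGTG. Of 32851 such windows in the whole table, 19.6% held ACGTG and 32.4% held GCGTG. Hif1a, Arnt and Vegfa are shown because a probe of each fell. The Hif1a window lies at chr12:73907617-73907916 and the Arnt window at chr3:95434140-95434439, both on the plus strand, and the first Vegfa window at chr17:46032328-46032627 on the minus strand, and capitals mark matches.
Hif1a: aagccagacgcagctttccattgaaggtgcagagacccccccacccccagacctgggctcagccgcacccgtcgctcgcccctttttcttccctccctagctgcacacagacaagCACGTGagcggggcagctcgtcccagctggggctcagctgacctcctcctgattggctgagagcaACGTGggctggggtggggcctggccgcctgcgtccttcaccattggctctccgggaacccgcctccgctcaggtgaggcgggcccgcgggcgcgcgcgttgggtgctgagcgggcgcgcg
Arnt: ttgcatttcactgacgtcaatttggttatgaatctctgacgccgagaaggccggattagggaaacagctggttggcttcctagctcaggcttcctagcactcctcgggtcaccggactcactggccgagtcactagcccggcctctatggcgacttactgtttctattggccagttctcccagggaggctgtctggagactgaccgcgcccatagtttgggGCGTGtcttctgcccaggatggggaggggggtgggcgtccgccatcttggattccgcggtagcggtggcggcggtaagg
Vegfa: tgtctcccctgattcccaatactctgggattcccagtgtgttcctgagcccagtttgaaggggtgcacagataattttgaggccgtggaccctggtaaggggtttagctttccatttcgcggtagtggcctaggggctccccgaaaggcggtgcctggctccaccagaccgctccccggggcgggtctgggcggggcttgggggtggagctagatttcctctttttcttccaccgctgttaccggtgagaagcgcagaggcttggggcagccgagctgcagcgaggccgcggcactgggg
The Hif1a window held 3 ACGTG matches, of which a palindromic CACGTG gave 2, 1 on each strand, and it held 0 GCGTG matches. These letters do not occur in the printed Vegfa window. In its second RefSeq window Vegfa had 1 match of each motif. That window, at chr17:46025114-46025413 on the minus strand, lies downstream of the first. Egln2 had 3 ACGTG and 3 GCGTG matches in its first window, Bnip3 had 2 and 3, and Egln1 had 1 and 1. A palindromic CACGTG gave 2 of the 3 ACGTG matches of Egln2 and the 2 of Bnip3, 1 on each strand. Egln3 had 1 ACGTG match and Arnt 1 GCGTG match, and neither motif occurs in the windows of Hif1an and Vhl. A match is a description of the letters and does not show a bound site.

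Hif1a was the member whose brightest probe had the largest absolute mean log2 ratio. The genes whose levels over the 8 channels were most like those of Hif1a were Mapk6 (Pearson r = 0.985), Dennd4a (r = 0.982) and Id1 (r = 0.979). The 8 points share 4 arrays, and these were the highest of all named genes, so the values are a description.

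The wider pathway was read from 5 lists with the brightest probe for each gene. Of 77 measured genes, 7 were higher and 13 lower in the mutants and 57 did not pass. Among all genes 13.6% passed, 7.01% higher and 6.63% lower. The median log2 ratio of the 77 was -0.03, with 0.01 for all genes. With median centring the lists gave 17 higher and 9 lower genes, and with Agilent's processed signals 1 higher (Pdk1) and 7 lower. Without array 2 none passed the limma threshold (32 at an unadjusted p under 0.05), and leaving out any other array left 8 to 10 genes past it. Siah2, Ep300, Pdk1, Kdm3a and Nrp1 were among those past it without array 1, without array 3 and without array 4.

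**Figure D5:**
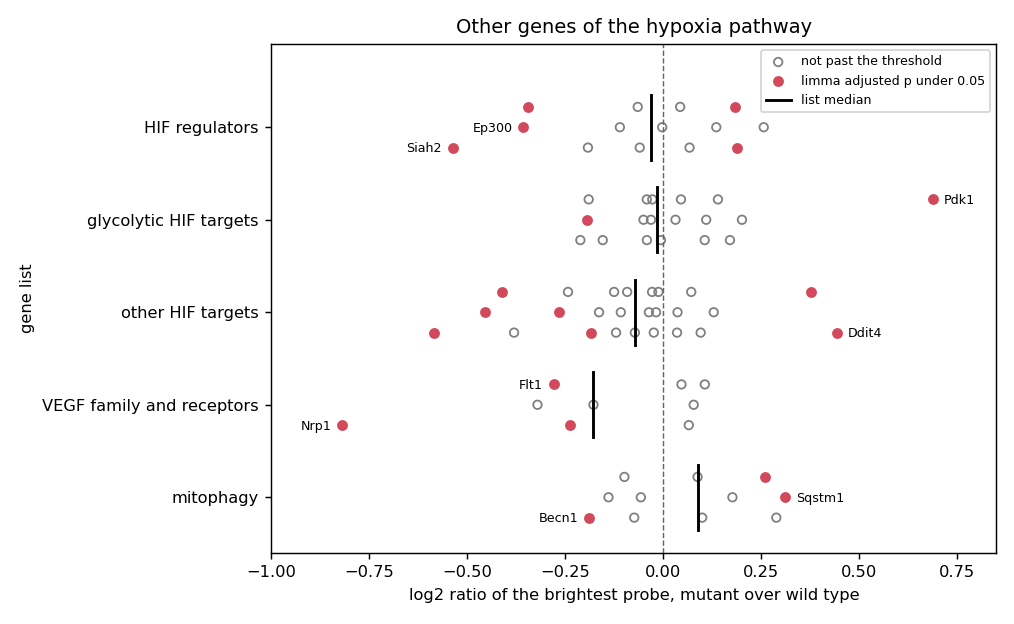
Log2 ratio (x axis, mutant over wild type) of the brightest probe of each gene in the 5 lists (y axis), filled where the adjusted p was under 0.05, with the list median as a black bar. Medians lie between -0.18 for the VEGF family and receptors and 0.09 for mitophagy, and Nrp1 at -0.82 and Pdk1 at 0.69 are the extremes.

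Among HIF regulators, 2 of 14 were higher, 3 lower and 9 did not pass (median -0.03). Siah2, a ubiquitin ligase of prolyl hydroxylases, fell on every array, by log2 ratios of -0.37, -0.38, -0.79 and -0.61 (mean -0.54 ± 0.20, SD, n = 4; adjusted p = 0.0145). The brightest probes of the coactivator genes Ep300 (-0.36 ± 0.07; adjusted p = 0.0130) and Crebbp (-0.34 ± 0.12; adjusted p = 0.0182) fell as well. Their other probes lay between -0.06 and 0.11, and the probe means of Ep300 (-0.06; adjusted p = 0.324) and Crebbp (-0.13; adjusted p = 0.0724) did not pass. Eloc, the elongin C subunit of the Vhl ligase, rose by 0.19 ± 0.07 (adjusted p = 0.0437) with its second probe at 0.20. With background subtraction its adjusted p was 0.0529. Rack1, which promotes oxygen-independent turnover of HIF alpha, was at 0.18 ± 0.07 on the brightest probe (adjusted p = 0.0485) and -0.05 on the other. With median centring its brightest probe was at 0.67, and the mean of its probes was 0.065 (adjusted p = 0.353).

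Of the glycolytic HIF targets, 1 of 18 was higher, 1 lower and 16 did not pass (median -0.02), a called share of 11.1%, near the 13.6% of all genes. With median centring 6 were higher and 0 lower. Pdk1, the kinase that restrains entry of pyruvate into the citric acid cycle, rose by log2 ratios of 0.40, 1.00, 0.52 and 0.83 (mean 0.69 ± 0.28, SD, n = 4; 1.61-fold; adjusted p = 0.0145). Its second probe, at 0.56, also passed. Aldoa, a glycolytic aldolase, was at -0.19 ± 0.09 (adjusted p = 0.0490) and turned to 0.20 with median centring. Slc2a1, Ldha, Pgk1 and Gapdh were at 0.20, 0.17, 0.11 and 0.05 and did not pass. On their brightest probes Pfkfb3, Tpi1 and Pkm, at -0.21, -0.19 and -0.15, did not pass either. Another Pfkfb3 probe (-0.18; adjusted p = 0.0390) and the mean of the Tpi1 probes (-0.21; adjusted p = 0.0445) did. The second Ldha probe was at -0.35 (adjusted p = 0.0867), and the mean of the Ldha probes was -0.09 (adjusted p = 0.642).

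Of the other HIF targets, 2 of 25 were higher, 5 lower and 18 did not pass (median -0.07). Kdm3a, a histone demethylase that itself needs oxygen, fell almost equally on the 4 arrays, by -0.38, -0.42, -0.41 and -0.43 (mean -0.41 ± 0.02, SD, n = 4; adjusted p = 0.00848), with its other probes at 0.05 and -0.34. Angptl4, an inhibitor of lipoprotein lipase, was at -0.45 ± 0.18 (adjusted p = 0.0167), and at -0.05 with median centring. Edn1, at -0.27 ± 0.17 (adjusted p = 0.0483), and Higd1a, at -0.19 ± 0.07 (adjusted p = 0.0461), also passed and were named after their values were seen. Higd1a turned to 0.10 with median centring. Its other probe was at 0.16 (adjusted p = 0.0546), and the mean of its probes was -0.015 (adjusted p = 0.829). Ddit4, an inhibitor of mTOR signalling, rose by 0.44 ± 0.25 (adjusted p = 0.0299) and Tfrc, the transferrin receptor, by 0.38 ± 0.18 (adjusted p = 0.0248). Ddit4 was lowest on array 4, at 0.08, with 0.48 to 0.61 on the others.

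In the VEGF family and its receptors, 3 of 9 genes were lower, 0 were higher and 6 stayed short of the threshold (median -0.18). The 3 lower genes are receptors of the factor Vegfa encodes. Nrp1, the coreceptor, fell by log2 ratios of -0.54, -0.94, -1.01 and -0.79 (mean -0.82 ± 0.21, SD, n = 4; 1.76-fold lower; adjusted p = 0.00790). Its other probes were at -0.67, which passed, and -0.23, which did not. On its brightest probe Flt1 fell by 0.28 (SD 0.09; adjusted p = 0.0233), with 1 of its 4 other probes above 0, and the mean of its probes was -0.12 (adjusted p = 0.0855). Kdr fell by 0.24 (SD 0.09; adjusted p = 0.0301), and was at -0.12 with median centring (adjusted p = 0.126). The ligand genes Vegfb, Vegfc, Vegfd and Pgf did not pass, at 0.05, 0.11, -0.18 and 0.07.

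Among 11 mitophagy genes, 2 were higher, 1 lower and 8 did not pass (median 0.09). Sqstm1, an autophagy receptor, was at 0.31 ± 0.13 (SD, n = 4; adjusted p = 0.0263), at 0.75 with median centring and at 0.18 with Agilent's processed signals (adjusted p = 0.188). Bcl2l1, a survival protein that binds BH3 domains, rose by 0.26 ± 0.12 (adjusted p = 0.0323). Becn1, an initiator of autophagy, was at -0.19 ± 0.05 (adjusted p = 0.0393), and at -0.11 with median centring (adjusted p = 0.145). Pink1, at 0.18, did not pass.

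Cell type markers moved with these groups, and their part in the results was not tested. Every marker measured passed the filter on dim probes, which does not ask for both channels or for all arrays. Of 7 hepatocyte markers, 4 were higher (Alb, Apoa2, Tat and Ttr) and 1 lower (Hnf4a). The other 2, Cyp2e1 at -0.27 and Apoa1 at -0.11, did not pass. The log2 ratio of the summed levels of the 7, in which the brightest genes weigh most, was 0.35 to 0.55. Of 8 sinusoidal endothelial markers, the list that shares Kdr with the VEGF receptors, 0 were higher and 2 lower (Kdr and Clec4g), and the ratio of the sums was -0.28, -0.20, -0.07 and -0.43 on arrays 1 to 4. Of 6 cholangiocyte markers, 0 were higher and 3 lower (Spp1, Sox9 and Cdh1), with ratios of sums from -0.68 to -0.27. Hnf4a, Clec4g and Sox9 were lower on their brightest probe alone. The means of their probes did not pass, at -0.14 (adjusted p = 0.0906), -0.07 (adjusted p = 0.340) and -0.27 (adjusted p = 0.0833). The other Clec4g probes were at 0.04 and 0.11. No Kupffer cell, stellate cell or erythroid marker passed limma's test, of 7, 6 and 4 measured, and 0 had an unadjusted p under 0.05. The ratios of their sums ran from -0.48 to 0.26, from -0.24 to 0.24 and from -1.06 to 1.5.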

How the data were processed

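Scanner files of 4 two-colour arrays and the authors' table of the series were used. Per the file headers, the deposited spot intensities come from Agilent Feature Extraction 10.5.1.1 and an array design annotated on mm9, and each file also holds a log10 ratio of the processed Cy5 over Cy3 signals. The authors' deposited table gives log2 ratios per array, p-values and adjusted p-values and, as scores, moderated statistics for each spot; the submitters' processing notes name limma, without a version. Against the scanner values those log2 ratios matched background subtraction followed by loess (slope 1.00 on each array).

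From the deposited median intensities, background was corrected with normexp (offset 50) and loess, in which control spots had weight 0, normalized the ratios within arrays (limma 3.58.1 in R 4.3.3). Outlier-flagged spots were removed and spots averaged by probe. Probes were kept if well above background in at least 0.5 of their spots in either channel on at least 3 arrays and with values on 3. lmFit and eBayes tested the mean log2 ratio against 0 over 39080 probes. The brightest kept probe stood for a gene in the lists. Levels per channel follow loess and Aquantile, and dye bias can remain in them. The 4 arrays shared 1 slide and 1 scan time. Per the labels, the same number marks the mutant and wild-type sample of an array; the ratio keeps that pair together. The number of unused columns of per-sample values was 0.

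All members and probes are named, and per list up to 3 genes past the threshold in each direction by size of ratio; other list genes were named after their values were seen. A few items are not reported here. The members, lists and alternatives were chosen with earlier results of these data known. On simulated arrays of 38927 probes the test recovered 46% of log2 changes of 0.3 and 100% of those of 0.6, and 7.49% of its calls were false. A far smaller share of the simulated probes carried a change than the 13.0% that passed in the data. The simulated noise was also independent between probes, so these percentages do not carry over to the real arrays. Alternatives covered background, normalization, filter, moderation, array weights, pairing, probe averaging, threshold, the authors' ratios and leaving out each array.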

Additional observations from a re-analysis of the deposited data

Results flagged for a closer look

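Over the levels of the 21 probes in each group and their log2 ratios, 63 groups of 4 values were checked for a value far from the other 3, and 3 were found. Chance gives about 1 in 20 such groups. The Hif1an probe A_52_P49233 had a wild-type log2 intensity of 7.86 on array 3, with 7.99 to 8.01 on the other arrays. The Epas1 probe A_51_P250058 had a mutant log2 intensity of 14.7 on array 1, with 15.1 to 15.2 on the others. The Arnt probe A_51_P494196 had a wild-type log2 intensity of 11.1 on array 1, with 11.3 to 11.4 on the others. None of these probes passed the threshold.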

How the results depend on the processing

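No background correction, background subtraction, the authors' ratios, both changes of the dim-probe filter, the intensity trend and array weights kept all 4 calls among the 21 probes (1 higher, 3 lower). The 7 higher and 13 lower genes of the pathway lists and the 2421 higher and 2655 lower probes overall stayed within 1.5 times of these counts under the same changes. Background subtraction and the authors' ratios each kept 15 of these list calls and lost 5: Eloc, Rack1, Aldoa, Becn1 and Higd1a. Their adjusted p-values in limma were 0.0519 to 0.0699 with background subtraction. Median centring gave 2 higher member probes, 4292 higher probes overall and 17 higher list genes. Agilent's processed signals gave 0 higher and 0 lower member probes (11 at an unadjusted p under 0.05 in limma), 488 higher and 708 lower probes, and 1 higher and 7 lower list genes. With the pairing of channels dropped, so that the 8 channels were separate samples with no replicate block, the counts were 0 and 0 member probes (5 at an unadjusted p under 0.05), 16 and 10 probes, and 0 and 0 list genes (21 at an unadjusted p under 0.05). Leaving out 1 array gave 0 to 1 higher and 0 to 2 lower member probes, 62 to 1020 higher and 98 to 1250 lower probes, and 0 to 2 higher and 0 to 8 lower list genes, lowest without array 2. An adjusted p under 0.1 gave 2 higher member probes. Under the pairing dropped, the adjusted p was 0.385 for Hif1a, 0.452 for Epas1, 0.449 for Arnt and 0.247 for Vegfa, with unchanged means. Signs turned with median centring for Epas1 A_51_P250058 (0.10), Bnip3 (0.24), Aldoa (0.20) and Higd1a (0.10). With Agilent's signals they turned for Egln1 A_51_P186899 (0.039), Egln3 (-0.022), Arnt A_51_P494196 (-0.12), Vhl (0.0019) and Vegfa A_52_P229471 (0.0032). Without single arrays, means near 0 crossed it: Bnip3 ran from -0.10 to 0.060, Egln3 from -0.010 to 0.14, Hif1an A_52_P49233 from -0.076 to 0.034 and Arnt A_51_P494196 from -0.038 to 0.071. The mean of a gene's probes turned Egln1 A_51_P186899 to 0.050, Epas1 A_51_P307954 to -0.14 and Arnt A_51_P494196 and A_52_P577150 to -0.11. The cause of these changes was not tested. Where 1 array was left out, the number of arrays fell as well.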
